A study of Mus musculus with 8 samples.

Results

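The genes described here encode the factors that start protein synthesis on the ribosome and carry it forward, the eukaryotic initiation factors (eIF) and elongation factors (eEF). They are the rows of the deposited table whose symbol starts with Eif or Eef and that reached 10 normalized reads in at least 3 of 8 libraries, without Eif2s3x, Eif2s3y, the eIF2 kinases and pseudogene symbols that contain -ps. Of 72 such symbols 13 were dropped by name, 2 (Eif5a2 and Eif4a3l2) were under the filter on low values, and 57 remained, out of 13704 genes that passed the same filter and 19055 in the table. The libraries were made from mouse liver taken 48 hours after partial hepatectomy, at an age of 8 to 9 weeks, a stage at which hepatocytes of the remnant divide to restore liver mass. The 5 URI(+/D)Hep livers came from a loss-of-function model in which URI was deleted in hepatocytes through a serum albumin-creERT2 line; the label still carries a + allele, and liver cells that do not express this Cre keep the gene. The 3 URI(+/+)Hep livers came from wild-type littermates. Tamoxifen was given for 1 week in both groups, and the sources used here do not say whether the wild-type littermates carried the Cre. URI, encoded by Uri1, is a prefoldin-like protein of a chaperone assembly. The labels number the replicates without saying that every library came from its own animal, so the p-values measure the spread between these samples.

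Translation starts when eIF2, carrying the initiator methionyl tRNA and GTP, joins the small ribosomal subunit together with eIF1, eIF1A, eIF3 and eIF5, and the cap-binding eIF4 proteins bring in the mRNA. eIF2B recharges eIF2 with GTP, and phosphorylation of the alpha subunit of eIF2 blocks that step under stress. Growth signals through the kinase mTORC1 release the cap-binding protein eIF4E from its inhibitors, the eIF4E binding proteins, and favour mRNAs that begin with a 5′ terminal oligopyrimidine tract (TOP mRNAs), which encode ribosomal proteins and several of the factors themselves. During elongation eEF1A delivers each aminoacyl tRNA, the eEF1B complex recharges eEF1A with GTP, and eEF2 moves the ribosome along by a codon. Liver regrowth after hepatectomy is known for a high demand on protein synthesis.

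Values are gene counts that the authors scaled by a per-library size factor, here called normalized reads, and the depth recovered from them was 4294494 to 4800694 reads in URI(+/D)Hep libraries and 3838674 to 4337966 in URI(+/+)Hep libraries. Uri1 lay at 328 to 437 normalized reads in the URI(+/D)Hep livers and at 310.0 to 468 in the URI(+/+)Hep livers (log2 fold change 0.01, limma adjusted p = 0.975), so this 3′ count, which need not touch the deleted part, does not separate the labelled groups. Some libraries stood apart from others of their label. Xist was at 9.59 and 2.95 in URI(+/+)Hep livers 1 and 2 and at 1217 or more in the other 6, and the 4 Y-linked genes summed to 3.54 in URI(+/D)Hep liver 1 and to 569 or more in the other 7. URI(+/D)Hep livers 2 to 5 and URI(+/+)Hep liver 3 had both, and the sources used here do not say whether a library pools animals. The dividing cell list of 12 genes summed to 653 to 5974 normalized reads in URI(+/D)Hep livers and 467 to 6970.1 in URI(+/+)Hep livers, lowest in URI(+/D)Hep liver 5 and URI(+/+)Hep liver 1. Hepatocyte markers (9 measured of 10 listed) summed to 47388 to 56129.9 normalized reads in URI(+/D)Hep livers and 48233 to 56200.4 in URI(+/+)Hep livers. Summed endothelial markers (10 of 10) did not overlap, with 2909 to 3274 normalized reads in URI(+/D)Hep livers and 2337 to 2834 in URI(+/+)Hep livers. Neutrophil markers (10 of 10) summed to 907 to 2148 normalized reads in URI(+/D)Hep livers and 1411 to 5635 in URI(+/+)Hep livers, and B and T cell markers (8 of 10) to 86.1 to 139.6 normalized reads in URI(+/D)Hep livers and 13.2 to 83.7 in URI(+/+)Hep livers. Macrophage and monocyte, stellate and fibroblast, and cholangiocyte sums overlapped between groups. The labels give the tissue as liver and the cell type as epithelial, and none of the measured markers of other liver cells was at 0 in every library. The part of cell composition, sex transcripts or cell division in the results that follow was not tested.

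Most factor genes had lower values in the URI(+/D)Hep livers, by modest amounts, and a smaller set stood slightly higher. The log2 fold change, URI(+/D)Hep over URI(+/+)Hep on the log2(value + 1) scale, was negative for 42 of the 57 genes and positive for 15, with a median of -0.24 beside -0.00 over all genes tested. It ranged from -0.63 for Eif4ebp1, an inhibitor of eIF4E, to 0.38 for Eefsec, the factor that brings selenocysteine to the ribosome. In whole liver, fewer cells of a type and less RNA per cell cannot be told apart. limma with Benjamini-Hochberg adjustment over all genes called 0 of the 57 lower, where 0.0146% of all genes were called lower, and 0 higher, where 0% were; the smallest adjusted p among the factors was 0.108. At an unadjusted limma p under 0.05, 22 of the 57 were lower (all genes 9.33%) and 0 higher (all genes 8.35%).

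The groups did not overlap for 17 factor genes. In 16 of them, 28.1%, every URI(+/D)Hep liver lay below every URI(+/+)Hep liver, a pattern that 7.3% of all genes showed. In 1, Eif4e2, every URI(+/D)Hep liver lay above, as for 6.13% of all genes. The 16 were Eif1b, Eif2s2, Eif2b1, Eif3d, Eif3f, Eif3h, Eif3i, Eif3k, Eif4a3, Eif4g2, Eif4h, Eif5a, Eef1b2, Eef1d, Eef1g and Eef2. The two-sided exact permutation p was 0.0179, the smallest that 56 splits of 8 libraries can give, for 14 of the 17, and 0.0357 for Eif1b, Eif2b1 and Eif4e2. DESeq2 on recovered reads called 7 factor genes lower (all genes 2.94%) and 0 higher (all genes 2.03%); the 7 were Eef2, Eif5a, Eif3d, Eef1g, Eif3f, Eef1b2 and Eif3h. edgeR on the same reads called 0. Averaged over the 57 genes after centring each gene on the midpoint of its group means, the log2 level was -0.10, -0.11, -0.12, -0.10 and -0.04 in URI(+/D)Hep livers 1 to 5 and 0.25, 0.03 and -0.00 in URI(+/+)Hep livers 1 to 3, so the groups did not overlap and URI(+/+)Hep liver 1 stood highest.

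**Figure D1:**
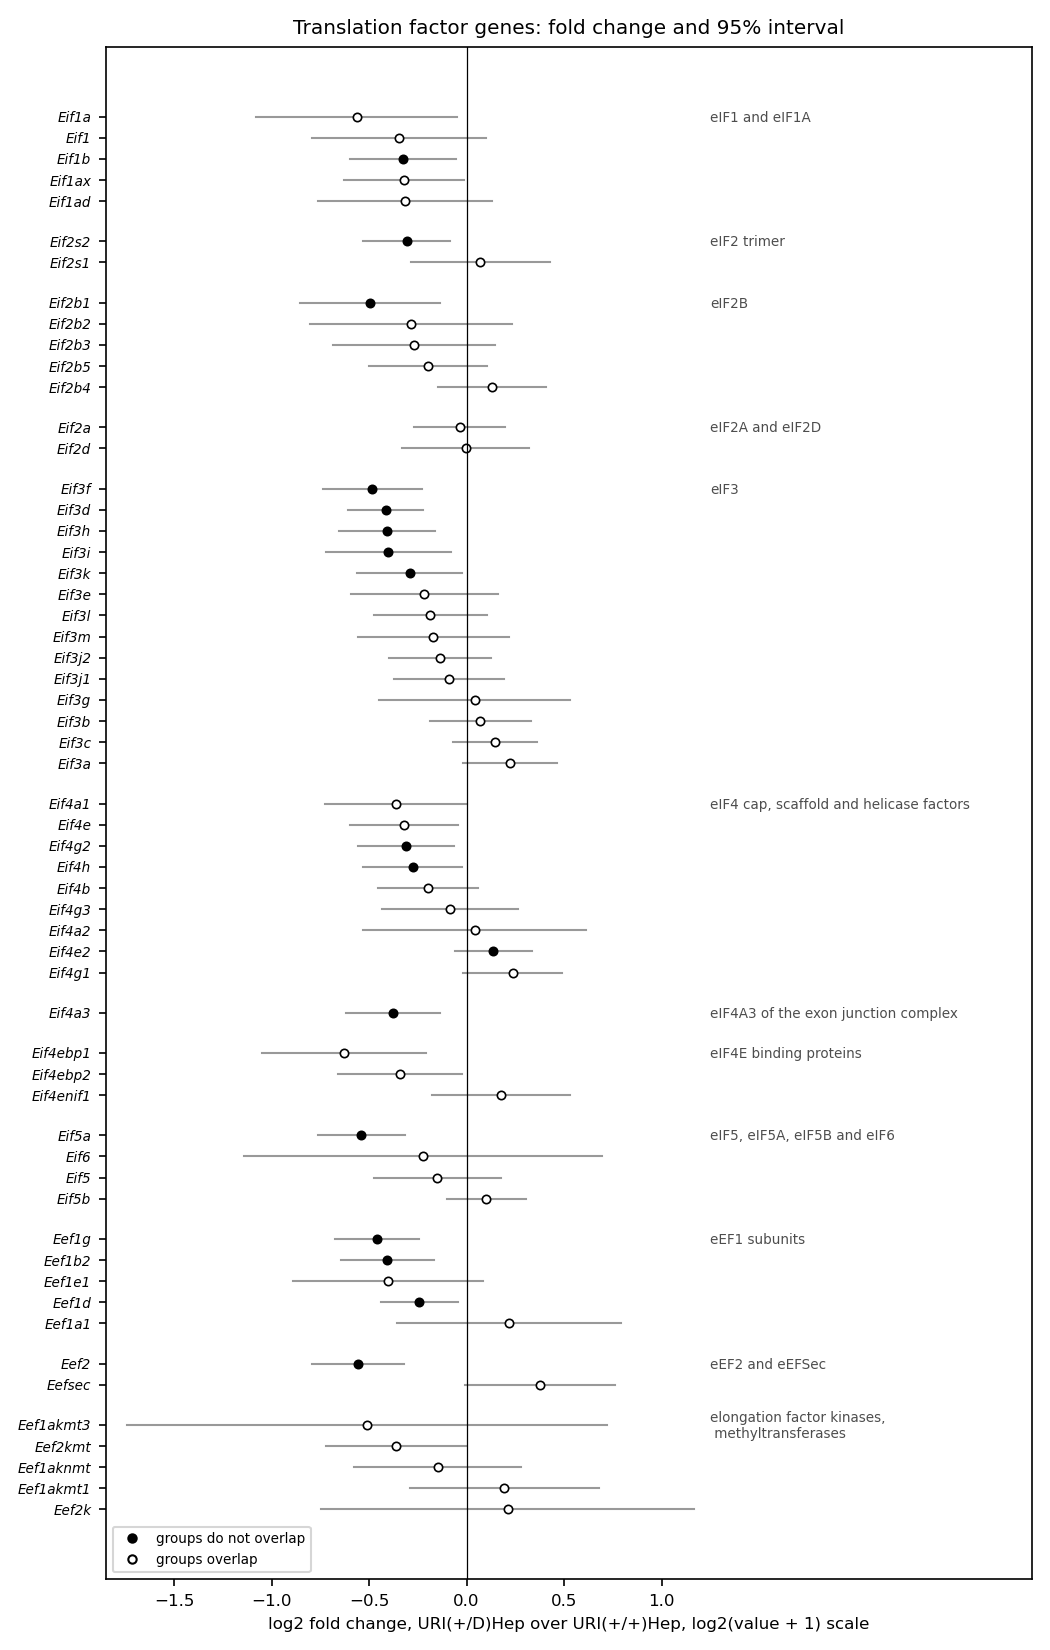
Log2 fold change of each of the 57 factor genes, URI(+/D)Hep over URI(+/+)Hep on the log2(value + 1) scale, with the limma 95% confidence interval as a line, grouped by complex. Filled points mark the 17 genes whose groups do not overlap; 16 of them lie left of 0, and Eif4e2 lies right of it.

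eIF1 and eIF1A bind the small subunit and keep it open while it scans for a start codon. All 5 genes of this class had negative log2 fold changes, from -0.56 to -0.31, and limma called none. Eif1b had 333, 294, 251, 339 and 308 normalized reads in URI(+/D)Hep livers 1 to 5, against 389.8, 356 and 396 in URI(+/+)Hep livers 1 to 3. The groups did not overlap for Eif1b (log2 fold change -0.32, SE 0.12, limma adjusted p = 0.216). Eif1a had 415, 486, 576, 447 and 551 in the URI(+/D)Hep livers, against 1103, 679 and 513 in the URI(+/+)Hep livers. Here URI(+/+)Hep liver 3 lay within the URI(+/D)Hep range, and liver 1 alone stood far above the rest (log2 fold change -0.56, SE 0.23, limma adjusted p = 0.244, and a log2 fold change of -0.26 without that liver). The X-linked Eif1ax had 258, 269, 255, 305 and 224 in the URI(+/D)Hep livers, against 381, 322 and 282 in the URI(+/+)Hep livers, with overlapping groups (log2 fold change -0.32, SE 0.14, limma adjusted p = 0.268, and -0.21 without URI(+/+)Hep liver 1). Eif1, whose reads can be shared with its close copy Eif1b and with a pseudogene, had a log2 fold change of -0.35, and -0.07 without URI(+/+)Hep liver 1. Eif1ad, an eIF1A-like gene, had -0.31, and -0.05 without that liver. Eif1a and Eif1ax also encode nearly identical proteins, and the split of their reads is uncertain.

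eIF2 is the GTP-binding trimer that carries the initiator tRNA, and its alpha and beta subunits were measured here through Eif2s1 and Eif2s2. Eif2s2 (beta) had 2295, 2412, 2699.5, 2496 and 2670.3 normalized reads in URI(+/D)Hep livers 1 to 5, against 3294, 3138 and 2893 in URI(+/+)Hep livers 1 to 3. Every URI(+/D)Hep value lay below every URI(+/+)Hep value, and the mean levels were 2515 ± 172 normalized reads in URI(+/D)Hep livers and 3109 ± 202 in URI(+/+)Hep livers (SD, n = 5 and 3; log2 fold change -0.31, SE 0.10, limma adjusted p = 0.172). Eif2s1 (alpha, the subunit that stress kinases phosphorylate) had 93.7, 106, 144, 128 and 107 in the URI(+/D)Hep livers, against 108, 110.3 and 108 in the URI(+/+)Hep livers. Its groups overlapped, with the highest value in URI(+/D)Hep liver 3 (log2 fold change 0.07, SE 0.16, limma adjusted p = 0.85). The gamma subunit is encoded by sex-linked gene copies left out by the rule.

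eIF2B, the exchange factor of eIF2, is built from subunits alpha to epsilon, encoded by Eif2b1 to Eif2b5. Eif2b1 (alpha) had 105, 74.1, 99.6, 82.4 and 108 in the URI(+/D)Hep livers, against 138, 122 and 134 in the URI(+/+)Hep livers. Its groups did not overlap (log2 fold change -0.49, SE 0.16, limma adjusted p = 0.171). Eif2b5 (epsilon, the catalytic subunit) had 354, 364, 461, 397 and 403 in the URI(+/D)Hep livers, against 377, 479 and 512 in the URI(+/+)Hep livers. Eif2b3 (gamma) had 178, 228, 256, 193 and 270.0 in the URI(+/D)Hep livers, against 339, 248 and 229 in the URI(+/+)Hep livers. Both overlapped, with log2 fold changes of -0.20 (SE 0.13, limma adjusted p = 0.47) for Eif2b5 and -0.27 (SE 0.18, limma adjusted p = 0.471) for Eif2b3. Without URI(+/+)Hep liver 1 these were -0.33 for Eif2b5 and -0.10 for Eif2b3, and without liver 3 Eif2b5 was at -0.11. Eif2b2 (beta) stood at -0.28 and Eif2b4 (delta) at 0.13 on the same scale. For eIF2 and eIF2B together, 5 of 7 genes were negative with a median of -0.27, which was -0.11 without URI(+/+)Hep liver 1. The remaining genes, Eif2a and Eif2d, encode factors that can place a tRNA on the ribosome without eIF2, and both overlapped between groups. Eif2a had 207, 186, 197, 226 and 199.8 in the URI(+/D)Hep livers, against 209, 216 and 199.5 in the URI(+/+)Hep livers. Eif2d had 71.6, 82.4, 78.3, 74.9 and 72.2 in the URI(+/D)Hep livers, against 87.5, 64.99 and 77.2 in the URI(+/+)Hep livers. Their log2 fold changes were -0.04 (95% CI -0.27 to 0.20) for Eif2a and -0.00 (95% CI -0.33 to 0.32) for Eif2d.

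eIF3, the scaffold that joins the small subunit to the mRNA-bound factors, has the most subunit genes, and they were not all on the same side of 0. Of 14 genes 10 were negative, and the median log2 fold change was -0.18, or -0.10 without URI(+/+)Hep liver 1. In 5 of them, Eif3d, Eif3f, Eif3h, Eif3i and Eif3k, every URI(+/D)Hep liver lay below every URI(+/+)Hep liver (all genes 7.3%). limma called none, and DESeq2 called Eif3d, Eif3f and Eif3h lower (all genes 2.94%). Averaged over the subunits, the centred log2 level was -0.06, -0.09, -0.12, -0.09 and -0.05 in the URI(+/D)Hep livers, against 0.21, 0.03 and 0.02 in the URI(+/+)Hep livers, again without overlap.

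Eif3d, which encodes a subunit able to bind the cap of some mRNAs, had 488, 458, 497, 511 and 499 normalized reads in URI(+/D)Hep livers 1 to 5, against 672, 633 and 659 in URI(+/+)Hep livers 1 to 3. The tight groups, 491 ± 19.8 normalized reads in URI(+/D)Hep livers and 654 ± 19.6 in URI(+/+)Hep livers (SD), did not overlap (log2 fold change -0.42, SE 0.08, limma adjusted p = 0.115; DESeq2 adjusted p = 0.00139). Eif3f had 286, 305, 284, 279 and 299.7 in the URI(+/D)Hep livers, against 482, 378 and 368 in the URI(+/+)Hep livers. Eif3h had 621, 582, 729.7, 681 and 584 in the URI(+/D)Hep livers, against 806, 815 and 920.5 in the URI(+/+)Hep livers. These subunits of the eIF3 octamer, both with an MPN domain, were below the URI(+/+)Hep range in every URI(+/D)Hep liver: Eif3f at -0.48 on the log2 scale (SE 0.11, limma adjusted p = 0.115, DESeq2 adjusted p = 0.015), Eif3h at -0.41 (SE 0.11, limma adjusted p = 0.133, DESeq2 adjusted p = 0.0331). Over the 22 alternatives the adjusted p ran from 0.00139 to 0.616 for Eif3d, from 0.015 to 0.616 for Eif3f and from 0.0331 to 0.616 for Eif3h.

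Eif3i, a WD-repeat subunit, stood at a log2 fold change of -0.40 and Eif3k at -0.29. On the other side, Eif3a, the large subunit that organizes the complex, had 2484, 2424, 2446, 2569 and 2273 in the URI(+/D)Hep livers, against 1798, 2327 and 2179 in the URI(+/+)Hep livers. Its lowest value was that of URI(+/+)Hep liver 1 and the groups overlapped (log2 fold change 0.22, SE 0.11, limma adjusted p = 0.318, and 0.11 without that liver). Eif3c, which pairs with Eif3a in the core, was at 0.15, Eif3b at 0.07 and Eif3g at 0.04. The remaining subunits lay between, Eif3e at -0.22, Eif3l at -0.19, Eif3m at -0.17, Eif3j2 at -0.14 and Eif3j1 at -0.09, and the Eif3j1 and Eif3j2 copies may share reads. The 8 octamer genes (a, c, e, f, h, k, l, m) had a median of -0.20 and the other 6 one of -0.11, a difference that was not tested.

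**Figure D2:**
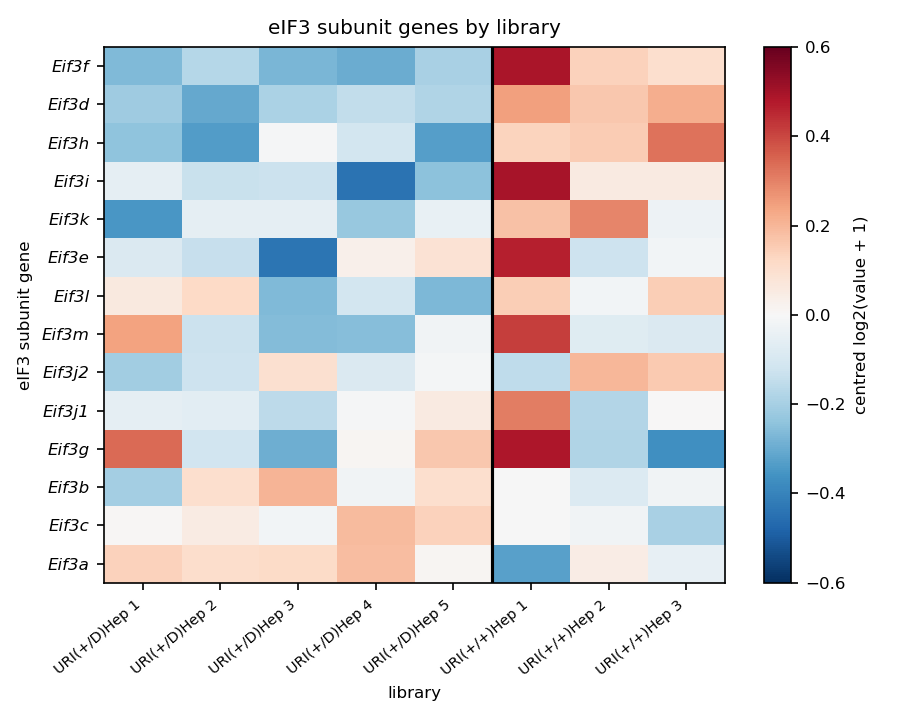
Centred log2(value + 1) of the 14 eIF3 subunit genes (rows, ordered by log2 fold change) in each library (columns, URI(+/D)Hep left of the black line); blue is below and red above the midpoint of the group means. Eif3f, Eif3d, Eif3h, Eif3i and Eif3k are blue or near 0 in all 5 URI(+/D)Hep livers, Eif3a is lowest in URI(+/+)Hep liver 1, and that liver holds the deepest red of most rows.

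The eIF4 group covers the cap-binding protein eIF4E, the scaffold eIF4G, the RNA helicase eIF4A with its helpers eIF4B and eIF4H, and the proteins that hold eIF4E back. Over all 13 Eif4 genes, 9 were negative with a median log2 fold change of -0.28. Without Eif4a3 and the genes of the eIF4E binding proteins, 6 of 9 were negative with a median of -0.20. Of the 13, the groups of 3 (Eif4a3, Eif4g2 and Eif4h) did not overlap with URI(+/D)Hep lower (all genes 7.3%), and limma, edgeR and DESeq2 called none. Eif4e and the scaffold genes Eif4g2 and Eif4g3 had negative log2 fold changes, and the scaffold gene Eif4g1 had a positive one. Eif4e had 372, 366, 373, 481 and 365 normalized reads in URI(+/D)Hep livers 1 to 5, against 452, 478 and 532 in URI(+/+)Hep livers 1 to 3. In the URI(+/D)Hep group only liver 4 reached the URI(+/+)Hep range (log2 fold change -0.32, SE 0.12, limma adjusted p = 0.227). Eif4g1, the main scaffold, had 2984, 2845, 2697, 3056 and 2914 in the URI(+/D)Hep livers, against 2889, 2350.3 and 2189.6 in the URI(+/+)Hep livers. It was higher on average in URI(+/D)Hep livers, with URI(+/+)Hep liver 1 inside their range (log2 fold change 0.24, SE 0.11, limma adjusted p = 0.31, and 0.15 without URI(+/+)Hep liver 3). Eif4g2, a scaffold relative that lacks the eIF4E binding part, had 1579, 1403, 1465, 1673 and 1622 in the URI(+/D)Hep livers, against 2187, 1759.5 and 1823 in the URI(+/+)Hep livers, with no overlap (log2 fold change -0.31, SE 0.11, limma adjusted p = 0.2). Eif4g3 was at -0.08 on the log2 scale, and 0.12 without URI(+/+)Hep liver 1.

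Among the helicase genes, Eif4a1 had 469, 539.8, 515, 516 and 554 in the URI(+/D)Hep livers, against 905, 612 and 535 in the URI(+/+)Hep livers. The groups overlapped through URI(+/+)Hep liver 3, and liver 1 was the highest (log2 fold change -0.36, SE 0.16, limma adjusted p = 0.283, and a log2 fold change of -0.14 without liver 1). Its close relative Eif4a2, which can share reads with it, was at 0.04. Eif4h, which stimulates the helicase, had 246, 249, 263, 259 and 221 in the URI(+/D)Hep livers, against 339, 278 and 285 in the URI(+/+)Hep livers, without overlap (log2 fold change -0.28, SE 0.11, limma adjusted p = 0.244), while Eif4b was at -0.20. Eif4a3, the helicase relative that sits in the exon junction complex and marks spliced mRNA, had 292, 279.6, 263, 318 and 309.6 in the URI(+/D)Hep livers, against 417, 359 and 363 in the URI(+/+)Hep livers. It did not overlap either (log2 fold change -0.38, SE 0.11, limma adjusted p = 0.142). Eif4e2, a cap-binding relative of eIF4E that represses translation, was the gene with every URI(+/D)Hep value (394 to 440.2 normalized reads) above every URI(+/+)Hep value (369 to 387), with a log2 fold change of 0.14 (limma adjusted p = 0.447).

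Eif4ebp1, the best-known mTORC1 target among the eIF4E binding proteins, had 78.7, 97.2, 81.2, 85.2 and 74.2 in the URI(+/D)Hep livers, against 158, 143 and 94.4 in the URI(+/+)Hep livers. Of all factor genes it had the most negative log2 fold change (-0.63, SE 0.19, limma adjusted p = 0.15), yet URI(+/+)Hep liver 3 lay inside the URI(+/D)Hep range. Eif4ebp2 had 927, 818, 779, 908 and 716 in the URI(+/D)Hep livers, against 1293, 916 and 969.8 in the URI(+/+)Hep livers. Its overlap came from URI(+/+)Hep liver 2 and URI(+/D)Hep liver 1 (log2 fold change -0.34, SE 0.14, limma adjusted p = 0.25, and -0.19 without URI(+/+)Hep liver 1). Eif4enif1, the transporter that takes eIF4E into the nucleus, had 255, 339.8, 276, 282 and 311 in the URI(+/D)Hep livers, against 329.8, 237 and 218 in the URI(+/+)Hep livers, with overlapping groups and the opposite sign (log2 fold change 0.18, SE 0.16, limma adjusted p = 0.59, and 0.36 without URI(+/+)Hep liver 1 and 0.06 without liver 3).

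eIF5 triggers GTP hydrolysis by eIF2, eIF5B joins the ribosomal subunits, eIF6 keeps free large subunits apart, and eIF5A, which carries the modified lysine hypusine, helps the ribosome past difficult stretches and at termination. Eif5a had 492, 454, 483, 462 and 477 normalized reads in URI(+/D)Hep livers 1 to 5, against 769, 610.5 and 696 in URI(+/+)Hep livers 1 to 3. The URI(+/D)Hep values lay in a narrow band, 474 ± 15.7 normalized reads in URI(+/D)Hep livers and 692 ± 79.2 in URI(+/+)Hep livers (SD, n = 5 and 3), and did not overlap the URI(+/+)Hep values (log2 fold change -0.54, SE 0.10, limma adjusted p = 0.108; DESeq2 adjusted p = 0.000386, and 0.000386 to 0.616 over the alternatives). Eif5 had 1696, 1779, 1751, 1701 and 1995 in the URI(+/D)Hep livers, against 2570.0, 1785 and 1685 in the URI(+/+)Hep livers. Apart from URI(+/+)Hep liver 1 and URI(+/D)Hep liver 5 its values were close together (log2 fold change -0.15, SE 0.14, limma adjusted p = 0.625, and 0.04 without URI(+/+)Hep liver 1 and -0.27 without liver 3). Eif5b had 2114, 2239, 2366, 2266 and 2269 in the URI(+/D)Hep livers, against 1958, 2255 and 2084 in the URI(+/+)Hep livers (log2 fold change 0.10, SE 0.09, limma adjusted p = 0.59, and 0.05 without URI(+/+)Hep liver 1 and 0.15 without liver 2). Eif6 had 386, 482, 340.2, 346 and 569.7 in the URI(+/D)Hep livers, against 1095, 413 and 254 in the URI(+/+)Hep livers. URI(+/+)Hep livers 1 and 3 held the highest and the lowest Eif6 value of all 8 libraries (log2 fold change -0.22, SE 0.41, limma adjusted p = 0.812), and the log2 fold change was 0.36 without liver 1, -0.34 without liver 2, -0.69 without liver 3 and -0.34 without URI(+/D)Hep liver 5.

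Eef2, the translocase of elongation, had the smallest DESeq2 adjusted p of the factor genes. It had 3324, 3058, 3509, 3093 and 3455 normalized reads in URI(+/D)Hep livers 1 to 5, against 5059.7, 4333 and 5130.2 in URI(+/+)Hep livers 1 to 3. Its means were 3288 ± 205 normalized reads in URI(+/D)Hep livers and 4841 ± 441 in URI(+/+)Hep livers (SD, n = 5 and 3), a fold of 0.68, and the groups did not overlap (log2 fold change -0.56, SE 0.10, limma adjusted p = 0.108; DESeq2 adjusted p = 8.36e-05, and 8.36e-05 to 0.616 over the alternatives). The log2 fold change of Eef2 kept near this size without URI(+/+)Hep liver 1 (-0.52) and without liver 3 (-0.51). The gene for the selenocysteine factor, Eefsec, had 333, 297, 303, 284 and 246 in the URI(+/D)Hep livers, against 170.3, 232 and 284 in the URI(+/+)Hep livers. It was higher on average in the URI(+/D)Hep livers, with URI(+/+)Hep liver 3 inside their range (log2 fold change 0.38, SE 0.17, limma adjusted p = 0.29, and 0.18 without URI(+/+)Hep liver 1).

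In eEF1, the mRNAs of the B subunits Eef1g, Eef1b2 and Eef1d were lower in every URI(+/D)Hep liver than in every URI(+/+)Hep liver (all genes 7.3%). The groups overlapped for the eEF1A gene Eef1a1. Eef1g (gamma) had 659, 589, 628, 731 and 647 normalized reads in URI(+/D)Hep livers 1 to 5, against 884, 879 and 914 in URI(+/+)Hep livers 1 to 3. Eef1b2 (the beta exchange subunit) had 1623, 1535, 1521, 1587 and 1600.2 in the URI(+/D)Hep livers, against 2449, 1979 and 1875 in the URI(+/+)Hep livers. Eef1d (delta, a further exchange subunit) had 979, 1006, 947, 998 and 1012 in the URI(+/D)Hep livers, against 1188, 1073 and 1251 in the URI(+/+)Hep livers. None of these overlapped, and their log2 fold changes were -0.46 for Eef1g (SE 0.09, limma adjusted p = 0.115, DESeq2 adjusted p = 0.00175), -0.41 for Eef1b2 (SE 0.11, limma adjusted p = 0.127, DESeq2 adjusted p = 0.0151) and -0.24 for Eef1d (SE 0.09, limma adjusted p = 0.208). Over the alternatives the adjusted p ran from 0.00175 to 0.616 for Eef1g and from 0.0151 to 0.616 for Eef1b2. Eef1a1, which encodes the tRNA carrier itself, had 448, 446, 314, 414 and 352 in the URI(+/D)Hep livers, against 555, 268 and 255 in the URI(+/+)Hep livers. The 2 lowest and the highest Eef1a1 values were all in URI(+/+)Hep livers (log2 fold change 0.22, SE 0.25, limma adjusted p = 0.692), and the log2 fold change was 0.58 without liver 1, 0.05 without liver 2 and 0.02 without liver 3. Eef1a1 has many processed pseudogenes with near-identical sequence, so its count is uncertain. Eef1e1, an auxiliary protein of the tRNA synthetase complex, was at -0.40. For the 5 eEF1 genes the median was -0.40, the value of Eef1e1 itself. It was -0.32 at a mean of at least 50, a filter that Eef1e1 did not pass. The median was -0.28 for all 13 Eif4 genes and -0.20 for the 9 cap, scaffold and helicase genes among them. It was -0.27 for eIF2 with eIF2B and -0.18 for eIF3, and the differences between complexes were not tested.

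**Figure D3:**
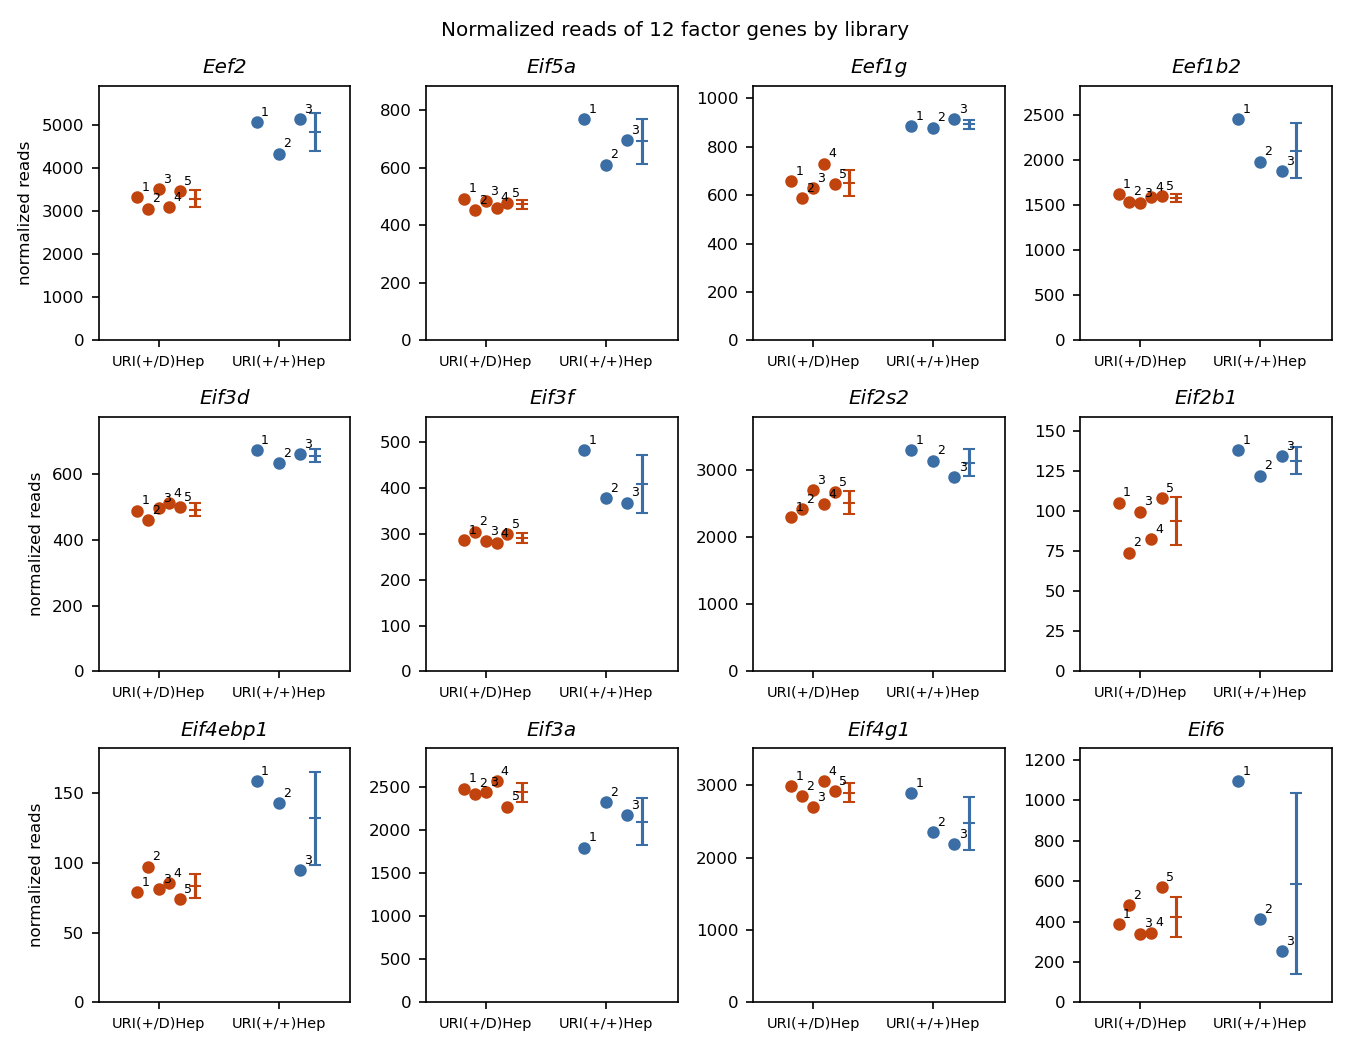
Normalized reads of 12 factor genes in each library (points numbered by replicate, URI(+/D)Hep in orange and URI(+/+)Hep in blue), with the group mean and SD beside the points and axes from 0. Eef2, Eif5a, Eef1g, Eef1b2, Eif3d, Eif3f, Eif2s2 and Eif2b1 show no overlap, Eif4ebp1, Eif3a and Eif4g1 overlap, and Eif6 spans 254 to 1095 within the 3 URI(+/+)Hep livers alone.

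Enzymes that modify the elongation factors showed no common direction. Eef2kmt, a methyltransferase of eEF2, had 148, 173, 174, 138 and 193 in the URI(+/D)Hep livers, against 249, 218 and 174 in the URI(+/+)Hep livers (log2 fold change -0.36, SE 0.16, limma adjusted p = 0.278). Eef1akmt1, a lysine methyltransferase of eEF1A, had 54.8, 72.2, 66.7, 62.8 and 104 in the URI(+/D)Hep livers, against 68.4, 63.02 and 53.6 in the URI(+/+)Hep livers, with the highest value in URI(+/D)Hep liver 5 (log2 fold change 0.19, SE 0.21, limma adjusted p = 0.676, and 0.06 without that liver and 0.10 without URI(+/+)Hep liver 3). Eef1akmt3 had 7.96, 2.78, 10.6, 6.56 and 20.8 in the URI(+/D)Hep livers, against 10.8, 18.7 and 8.58 in the URI(+/+)Hep livers. With 3 reads worth 2.65 to 3.60 normalized reads, these rest on few reads each, and the log2 fold change of -0.51 had a 95% CI of -1.74 to 0.72. Leaving out a library moved it between -0.82, without URI(+/D)Hep liver 5, and -0.19, without liver 2, with -0.21 without URI(+/+)Hep liver 2. Eef2k, the kinase that inactivates eEF2, ran from 31.6 to 87.5 in URI(+/D)Hep livers and from 26.4 to 66.5 in URI(+/+)Hep livers (log2 fold change 0.21, 95% CI -0.74 to 1.17), and Eef1aknmt was at -0.15.

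**Figure D4:**
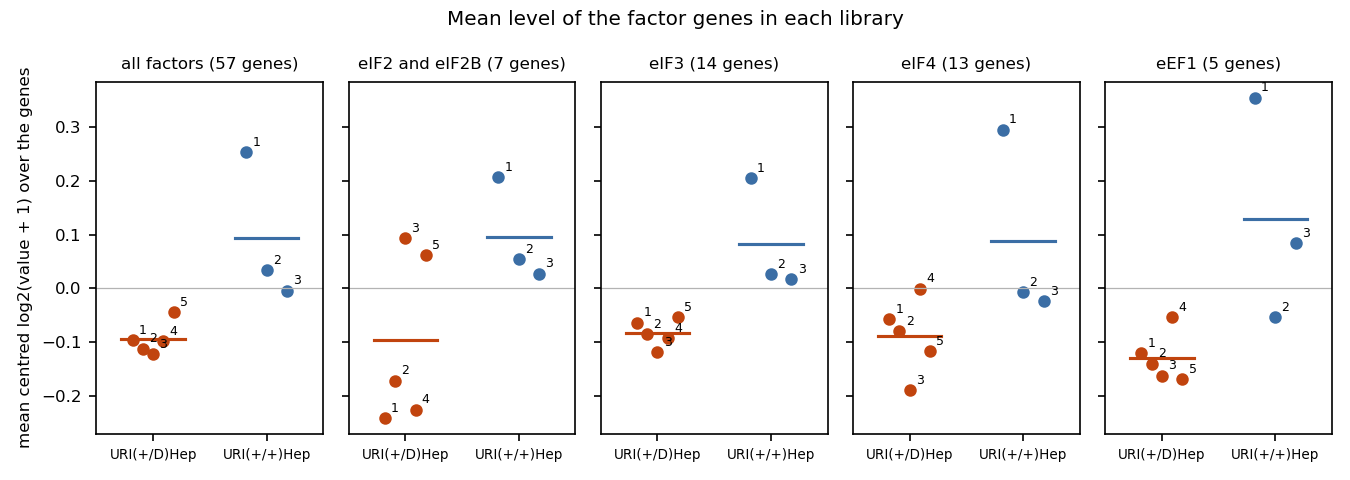
Mean centred log2(value + 1) over the genes of each complex in each library (points numbered by replicate; bars are group means), for all 57 factors and for eIF2 with eIF2B, eIF3, eIF4 and eEF1. All factors and eIF3 do not overlap between groups; in eEF1 URI(+/D)Hep liver 4 and URI(+/+)Hep liver 2 touch at -0.05, the other panels overlap, and URI(+/+)Hep liver 1 is the top point of every panel.

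Several factor mRNAs belong to the classical TOP class, and a list of 9 of them (Eef1a1, Eef1b2, Eef1d, Eef1g, Eef2, Eif3e, Eif3f, Eif3h and Eif4b) was compared with the rest. Of the 9, 8 were negative with a median log2 fold change of -0.41. In 6 the groups did not overlap with URI(+/D)Hep lower (all genes 7.3%), and DESeq2 called 5 lower (all genes 2.94%). The other 48 factor genes had a median of -0.21, with 10 not overlapping in that direction, and 2, Eif5a and Eif3d, were called lower by DESeq2. Most of the class lay on the low side, and Eef1a1 (0.22) on the other. Low values were also found outside the factor genes. The 76 cytosolic ribosomal protein genes, the main TOP mRNAs, had a median of -0.38 with 68 negative. Of these, 33 (43.4%) did not overlap with URI(+/D)Hep lower. DESeq2 called 23 of them lower and gave no adjusted p for 7 others. The mRNA of the poly(A) binding protein Pabpc1, also a TOP mRNA, was at -0.00.

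The TOP tract lies at the very start of the mRNA, so the 60 bases around the RefSeq start site (30 on each side, 5′ to 3′ on the gene's strand, GRCm38.p6) are shown for the 5 listed genes with a RefSeq promoter entry and for Eif3a and Eif4g1, unlisted genes chosen for contrast after their positive log2 fold changes were seen. Capitals mark the longest unbroken run of C or T on that strand, and only the most upstream one where runs of the same length tie.
Eef1a1: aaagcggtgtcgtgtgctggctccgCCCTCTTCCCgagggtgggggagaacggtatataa
Eef1b2: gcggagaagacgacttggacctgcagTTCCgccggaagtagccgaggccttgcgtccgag
Eef2: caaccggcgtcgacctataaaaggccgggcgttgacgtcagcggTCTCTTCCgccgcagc
Eif3f: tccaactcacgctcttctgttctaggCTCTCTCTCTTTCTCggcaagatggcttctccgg
Eif4b: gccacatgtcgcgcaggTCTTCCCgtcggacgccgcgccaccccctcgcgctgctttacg
Eif3a: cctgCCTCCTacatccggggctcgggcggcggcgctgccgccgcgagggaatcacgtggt
Eif4g1: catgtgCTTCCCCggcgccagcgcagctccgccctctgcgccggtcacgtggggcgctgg
The windows are at Eef1a1 chr9:78481695-78481754 (minus strand), Eef1b2 chr1:63176801-63176860 (plus strand), Eef2 chr10:81176601-81176660 (plus strand), Eif3f chr7:108934385-108934444 (plus strand), Eif4b chr15:102073743-102073802 (plus strand), Eif3a chr19:60790664-60790723 (minus strand) and Eif4g1 chr16:20672697-20672756 (plus strand). The longest run was 15 bases in Eif3f, crossing the annotated start site from base -4 to base 11 (counted from 1 at the start site, with no 0), a length reached in 2.1% of all 27025 promoters. In Eef1a1 the run of 10 bases also crosses the annotated start site (10.7% of all promoters hold one as long), and in Eef2 a run of 8 begins at base 15 (22.8%). Eef1b2 has 4 bases just before that site and another run of 4, cctt, downstream of it. The marked runs of Eif4b (7 bases), Eif3a (6) and Eif4g1 (7) lie further upstream. Eif4b holds another run of 7 bases, ccccctc, downstream of the annotated start site. The median longest run was 8 bases over the 5 listed genes, 5 over the 39 other factor genes matched and 5 over all promoters. Eif3f with the longest run and Eef1b2 with the shortest had similar log2 fold changes (-0.48 and -0.41). The Eef1a1 window ends in tatataa, downstream of its run, so that run need not lie at the start of the mRNA. A run is a description of these letters, and the annotated start need not be the start used in liver.

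Of the other translation pathway lists, the ribosomal protein genes given above had the most negative median; the medians of the 6 lists that follow were between -0.14 and 0.04. limma called 0 genes in each in either direction. Termination and recycling genes (7 measured, 5 negative) had a median log2 fold change of -0.07. Among them Gspt1, the release factor eRF3a, averaged 455 ± 39.9 in URI(+/D)Hep livers and 291 ± 38.1 in URI(+/+)Hep livers (log2 fold change 0.64, SE 0.12, limma adjusted p = 0.108). Its per-library values of 399.5, 431, 496, 486 and 462 in URI(+/D)Hep livers did not overlap 258, 333 and 283 in URI(+/+)Hep livers (all genes 6.13%). DESeq2 called Gspt1 higher (all genes 2.03%). Mcts1, a partner of Denr in re-initiation, averaged 576 ± 15.1 in URI(+/D)Hep livers and 643 ± 17.6 in URI(+/+)Hep livers (log2 fold change -0.16, SE 0.08, limma adjusted p = 0.337). The poly(A) binding and LARP list (8 genes, 4 negative) had a median of 0.01, with Pabpc4 at -0.35 and Paip2b at 0.26. Kinases and phosphatase genes that set eIF2 phosphorylation (9 genes, 3 negative) had a median of 0.03. Ppp1ca, a catalytic phosphatase subunit, was at -0.39, and the amino acid sensing kinase gene Eif2ak4 at 0.30. The 13 mTORC1 and MNK genes, 5 of them negative, had a median of 0.04. Those with the smallest p were the S6 kinase gene Rps6kb1 (0.25, limma adjusted p = 0.233) and Rptor (0.16, limma adjusted p = 0.395), the substrate-binding subunit of mTORC1. In both, every URI(+/D)Hep liver lay above every URI(+/+)Hep liver, as for 6.13% of all genes. Mitochondrial factors (9 genes, 5 negative) had a median of -0.06, with the exchange factor Tsfm at -0.55 and the release factor Mtrf1l at 0.56. Enzymes of hypusine and diphthamide, the modified residues of eIF5A and eEF2, had a median of -0.14 (8 genes, 6 negative), with Dph6 at -0.39 and Dph3 at -0.24. Besides Gspt1, Rps6kb1 and Rptor, the groups of other genes named from these lists did not overlap. Mcts1, Pabpc4 and Tsfm were lower in every URI(+/D)Hep liver (all genes 7.3%), and Mtrf1l was higher (all genes 6.13%). Protein phosphorylation was not measured.

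Over the whole table, genes with longer transcripts had higher log2 fold changes. Across genes, which share the same 8 libraries and are not independent replicates, the log2 fold change and the length of the longest protein-coding transcript had a Spearman rho of 0.256 over 12147 genes and of 0.318 over 56 factor genes; with the median transcript length the values were 0.190 and 0.0325. With all genes split by length into 5 groups of equal size, the median log2 fold change in the shortest group was -0.14 and 13.8% did not overlap with URI(+/D)Hep lower, and in the longest group these were 0.14 and 2.76%. Factor genes are mostly short: 34 of 56 are in length groups 1 and 2. Within group 1 the 15 factor genes had a median of -0.29 and 6 did not overlap, in group 2 the 19 genes had -0.31 and 7 beside -0.06 and 9.51% of all genes, and in group 3 the 9 genes had 0.07 and 2 beside -0.02 and 6.59%. In group 4 the 6 genes had -0.23 and 0 beside 0.03 and 4.94%, and in group 5 the 7 genes had -0.08 and 1 beside 0.14 and 2.76%. By library, rho between length and the centred level of all genes was 0.0626 to 0.191 in URI(+/D)Hep livers and -0.154 to -0.0602 in URI(+/+)Hep livers. Each gene was centred on the midpoint of its group means, so the opposite signs of the groups largely restate the rho of the log2 fold change. The part of transcript length in the factor results was not tested.

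**Figure D5:**
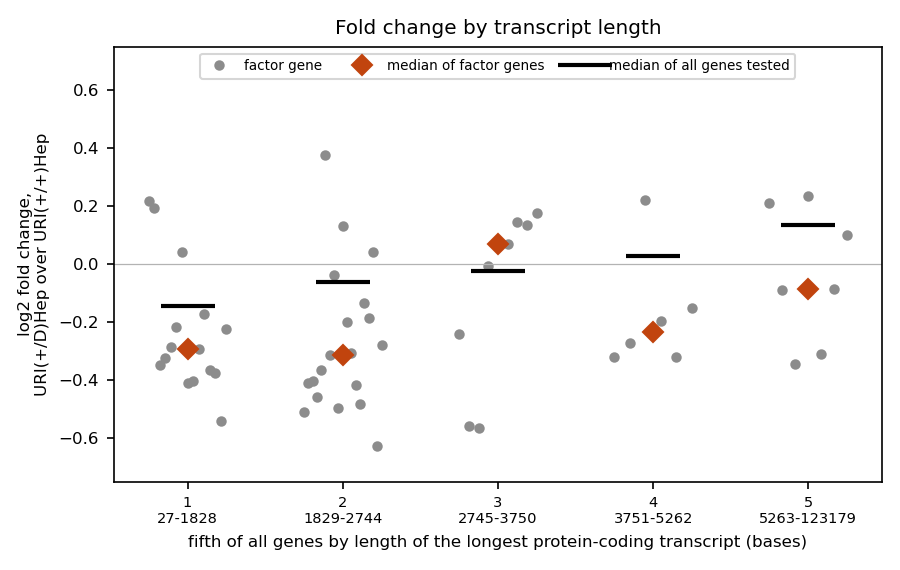
Log2 fold change of 56 factor genes (grey points; diamonds are their medians) by length group, all genes being split into 5 groups of equal size by the length of the longest protein-coding transcript in bases, with the median of all genes tested as a black bar. The factor medians lie below the bar in groups 1, 2, 4 and 5 and above it in group 3.

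URI(+/+)Hep liver 1, which also had the least Mki67 and dividing-cell signal, held the highest value of 30 of the 57 factor genes, beside 3 for liver 2 and 9 for liver 3. Its Mki67, a marker of dividing cells, was 23.99, against 282 and 468 in the other URI(+/+)Hep livers and 49.5 in URI(+/D)Hep liver 5. Without URI(+/+)Hep liver 1 the factor genes were negative in 38 of 57 with a median of -0.19, and 18 did not overlap with URI(+/D)Hep lower and 6 higher, beside 11.5% and 10.5% of all genes. Without URI(+/+)Hep liver 3, the one with Xist, the median was -0.28, and 21 did not overlap with URI(+/D)Hep lower and 2 higher, beside 13.2% and 11.8%. Leaving out any single library gave 16 to 21 genes lower without overlap, beside 7.68% to 13.2% of all genes. With every library kept that share was 7.3%.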

How the data were processed

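Liver RNA in 5 URI(+/D)Hep and 3 URI(+/+)Hep libraries was sequenced from the 3′ end with a stranded QuantSeq kit and molecular tags of 6 nt, per the labels' protocols. The authors deposited a single table of normalized signal, gene counts scaled by a per-library size factor. Per the submitters' processing notes, GRCm39, DESeq2, featureCounts and bcl2fastq were used; which aligner, annotation, strand setting and tag handling went with them is not given in the sources used. In 3′ data a transcript gives reads near its end whatever its length, and a gene with near-identical copies can lose or share reads.

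The log2(value + 1) of each gene went into limma 3.58.1 (trend, R 4.3.3), fitted over the 13704 genes with at least 10 in at least 3 libraries, with Benjamini-Hochberg adjustment and a threshold of 0.05; standard errors and 95% intervals come from that fit. Single genes also had a two-sided exact permutation test over 56 splits. Each value is a whole multiple of what 1 read was worth (100% of values at a tolerance of 1e-06), so reads were recovered and tested with edgeR 4.0.16 and DESeq2 1.42.0 as alternatives. In URI(+/D)Hep library 5 that worth, 0.989, is too near 1 for the step alone to be sure, so both tools were also run on 7 libraries. Counting floors and depth cover counting error only. Tested on simulated data for the same comparison (13481 genes), limma recovered 31.2% of 96 genes changed 2-fold and 84.7% of 98 changed 4-fold, with 8 false calls. The simulation drew each gene on its own, without variation shared between genes. It held no change below 2-fold, so recovery at the smaller changes of the factor genes was not tested.

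The genes and lists were chosen with earlier results of these data known, so no test was made over a list. Every library's values are given for the 3 genes with the smallest limma p in each class and for 10 genes chosen by name (Eif2s1, Eif3a, Eif4e, Eif4g1, Eif4a1, Eif4ebp1, Eif5a, Eif6, Eef1a1 and Eef2). Of each pathway list the 2 genes with the smallest p are named, most by log2 fold change; Pabpc1, Eif4e2, the values of Gspt1 and the ribosomal protein genes were added after their values were seen. Transcript lengths (56 of 57 genes matched by symbol) and RefSeq promoters (44 of 57) are from GRCm38, another build than the counts, and were used for lengths and sequences only. Alternatives were other pseudocounts, filters and scalings, fits without trend or with a covariate for Y-linked transcripts or a replicate block, and fits leaving out libraries.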

Additional observations from a re-analysis of the deposited data

Results flagged for a closer look

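Among the 36 genes given library by library, 2 had a URI(+/D)Hep liver far from the other 4; chance alone flags about 1 group in 20. Eif4e stood at 481 normalized reads in URI(+/D)Hep liver 4, against 365 to 373 in the other URI(+/D)Hep livers, a gap of 0.930 of the group's whole range. Eif5 stood at 1995 in URI(+/D)Hep liver 5, against 1696 to 1779 in the others, a gap of 0.724 of the range. The 3 URI(+/+)Hep livers are too few for this check.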

How the results depend on the processing

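Over the 22 alternatives limma and edgeR called 0 factor genes, and DESeq2 called 7 lower, or 5 on the 7 libraries chosen after seeing the data. The single-gene values gave 763 alternatives unchanged in sign and call, 12 newly called on the same side and 14 reversed. Genes called lower over the whole table, 2 in the fit reported, were 0 with quantile normalization, without the trend, in a fit of 6 libraries without the 2 livers lowest in Mki67, with a Y-linked share covariate and with edgeR on 7 libraries, 339 with DESeq2 and 255 with DESeq2 on 7 libraries, and 0 to 23 when a library was left out, the 23 without URI(+/+)Hep liver 3. Genes called higher, 0 in that fit, were 1 at a mean of at least 50, 1 in the fit of 6 libraries, 234 with DESeq2 and 123 with DESeq2 on 7 libraries, and 0 to 11 when a library was left out, the 11 again without URI(+/+)Hep liver 3. The median log2 fold change stayed negative for every complex in every alternative. In the fit of 6 libraries it was -0.15 for all factors, -0.10 for eIF3 and -0.15 for eIF4, and for eEF1 it was -0.28 with quantile normalization. Leaving out a library gave -0.36 to -0.11 for eIF2 with eIF2B and -0.23 to -0.10 for eIF3, the weak ends without URI(+/+)Hep liver 1. The cause of these shifts was not tested.

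Of the 36 genes given library by library, signs turned for 4, none of them called; over all factor genes 51 of 57 kept their sign without URI(+/+)Hep liver 1, the fewest of the alternatives. Eif2d, at -0.00, was 0.113 in the fit of 6 libraries, 0.0255 with the Y-linked share, 0.0235 with the replicate block, 0.00408 with edgeR and 0.0128 with DESeq2 on 7 libraries, and -0.12 to 0.0957 when a library was left out. In the same leave-outs Eif2s1, at 0.07, ran from -0.0124 without URI(+/D)Hep liver 3 to 0.14, Eif5 from -0.27 to 0.0383 without URI(+/+)Hep liver 1, and Eif6 from -0.69 without URI(+/+)Hep liver 3 to 0.361 without liver 1; Eif6 was 0.25 in the fit of 6 libraries and 0.12 with the Y-linked share. Deviations of same-numbered livers from their group means correlated at -0.40, -0.04 and -0.27, and those of livers with different numbers at -0.54 to 0.54. So few correlations cannot decide whether the replicate numbers pair the livers. A replicate block, which leaves 6 libraries informative, called 0 genes lower and 0 higher, with a median of -0.26 for the factors. Genes near 3 reads, such as Eef1akmt3, are limited by depth.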

Other observations

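Genes left out by name were not tested here as factors, and their values are given as read. Eif2s3x, the X-linked gene of the eIF2 gamma subunit, had 283, 216, 232, 246 and 258 normalized reads in URI(+/D)Hep livers 1 to 5, against 251, 219 and 254 in URI(+/+)Hep livers 1 to 3. Its Y-linked copy Eif2s3y had 0.88 in URI(+/D)Hep liver 1 and 119, 149, 139 and 109.8 in livers 2 to 5, against 325, 254 and 112 in the URI(+/+)Hep livers. The X-linked values overlapped between the groups, and the Y-linked ones were highest in URI(+/+)Hep livers 1 and 2, which had almost no Xist. The kinase gene Eif2ak2, which responds to double-stranded RNA, ran from 175 to 334 in URI(+/D)Hep livers and from 211 to 294 in URI(+/+)Hep livers.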
